A study of Mus musculus with 56 samples.

Results

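The genes described here are 8 genes of antigen presentation by major histocompatibility complex (MHC) class II: H2-Aa, H2-Ab1, H2-Eb1, H2-DMa, H2-DMb1, Cd74, Ciita and Cd86. They were chosen by name for their role, out of 45513 genes counted, with earlier results of these data known. Their symbols were matched to the Ensembl identifiers of the count files through GENCODE vM21. All 8 passed the filter on low counts that left 14314 genes for testing. They were measured by RNA sequencing of the liver of 56 female APOE*3Leiden.CETP mice, in 7 groups of 8. These mice carry the human APOE*3Leiden and CETP transgenes, were between 9 and 14 weeks old at the start, and all ate a Western-type diet with 15% cacao butter and 0.15% cholesterol. Control mice were gavaged with the vehicle, 5% carboxymethyl cellulose. Of the treated groups, 5 received an inhibitor of the BCR-ABL1 tyrosine kinase by gavage: imatinib at 150 mg/kg in 2 gavages per day, nilotinib at 10 or 30 mg/kg, or ponatinib at 3 or 10 mg/kg, the last 2 drugs in 1 gavage per day with vehicle at the other. The remaining mice received L-NAME, an inhibitor of nitric oxide synthase, at 0.12 to 0.20% of the drinking water with vehicle gavage. The study used these groups to ask how the inhibitors act on cardiovascular risk in this model.

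MHC class II molecules carry peptides from engulfed proteins to the cell surface and show them to CD4 T cells. Each is a pair of an alpha and a beta chain. H2-Aa and H2-Ab1 encode the alpha and the beta chain of the I-A molecule, and H2-Eb1 encodes the beta chain of I-E. Cd74 encodes the invariant chain, which fills the groove of new class II molecules and guides them to the endosome, and the H2-DM heterodimer encoded by H2-DMa and H2-DMb1 exchanges its remnant for peptide. Ciita encodes the class II transactivator, a protein without DNA binding of its own that is recruited by the factors on the X and Y boxes of class II promoters and switches the whole set on. Cd86 encodes a costimulatory ligand of CD28 that T cells need beside the peptide. In the liver these genes are used mainly by dendritic cells, macrophages and B cells, which are a small part of the tissue.

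The promoters are shown for the chain genes that the results turn on, because the letters on which the class II factors are known to assemble lie there. The RefSeq promoter table (GRCm38.p6) held 4 of the members, and H2-Aa and H2-Eb1 are printed from 120 bases upstream of the start site up to the base before it. The H2-Aa stretch is chr17:34287824-34287943 on the minus strand and the H2-Eb1 stretch is chr17:34305747-34305866 on the plus strand. Capitals mark an X box core, spelled GNAAC, and downstream of it a Y box core, spelled TGATTGG. These letters were set after these promoters had been read.
H2-Aa: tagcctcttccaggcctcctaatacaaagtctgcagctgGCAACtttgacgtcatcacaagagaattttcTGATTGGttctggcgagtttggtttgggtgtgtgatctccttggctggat
H2-Eb1: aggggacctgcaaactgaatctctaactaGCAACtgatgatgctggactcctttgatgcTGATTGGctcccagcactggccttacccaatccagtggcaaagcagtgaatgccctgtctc
In H2-Aa the X core began 81 bases and the Y core 50 bases upstream of the start site, with 26 bases between them. In H2-Eb1 they began 91 and 61 bases upstream, with 25 bases between them. H2-DMb1 held the same pair at 94 and 63 bases upstream, and neither of the 2 H2-DMa entries held it. Of 4 other class II genes in the table, H2-Oa, H2-Ob and H2-Eb2 held the pair and H2-DMb2 held the Y core alone. Searched on both strands, with 15 to 40 bases between the cores so that they cannot overlap, the pair was present in 0.715% of 32851 promoters of 300 bases. The Y core, with or without an X core, was present in 7.82%. A match is a description of these letters and does not show that a factor was bound.

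Library depth, as reads assigned to genes, ran from 5342379 to 97473341 and had its median at 7570238. The deepest library was that of L-NAME mouse 2, and no other exceeded 17996732; with or without it, edgeR called no member with L-NAME. The libraries were liver: the summed level of 7 hepatocyte markers was between 59860 and 140800 CPM in every mouse. CPM is a gene's share of the counts of its library scaled to parts per 1e+06, here with library sizes normalized by the trimmed mean of M-values (TMM). Between 7.55% and 16.8% of the uniquely aligned reads lay outside annotated genes, with group means between 7.97% ± 0.42 (SD, n = 8), that of the control mice, and 11.04% ± 1.99 (SD, n = 8), that of the mice on ponatinib 10 mg/kg. In bulk liver, fewer cells of a type and less RNA per cell cannot be told apart. No source used here ties a replicate to a cage or batch, so p-values measure the spread between these mice.

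H2-Aa lies on the minus strand of chromosome 17 at 34282744 to 34287823 (GRCm38). In control mice its lowest, median and highest level was 52.2, 119 and 197 CPM. It was 24.8, 40.2 and 54.1 CPM with imatinib, 27.6, 42.5 and 101 CPM with ponatinib 3 mg/kg, and 26.4, 44.9 and 78.5 CPM with ponatinib 10 mg/kg. All 8 mice of each of these 3 groups lay below the control median, and 6 of 8 in each lay below every control mouse. With nilotinib it was 56.5, 111 and 340 CPM at 10 mg/kg and 68.6, 135 and 347 CPM at 30 mg/kg, and with L-NAME 54.1, 126 and 187 CPM. The values of these 3 groups overlapped those of the control mice over most of the control range.

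H2-Ab1, on chromosome 17 at 34257689 to 34269419, and H2-Eb1, at 34305867 to 34316674, were likewise lowest with imatinib and both doses of ponatinib. H2-Ab1 was 40.7, 97.3 and 156 CPM in control mice, 19.6, 36.9 and 49.3 CPM with imatinib, 19.7, 33.5 and 57.4 CPM with ponatinib 3 mg/kg and 20.5, 38.5 and 51.8 CPM with ponatinib 10 mg/kg. H2-Eb1 was 41.1, 105 and 175 CPM in control mice, 18.7, 35.5 and 54.6 CPM with imatinib, 22.0, 37.4 and 78.8 CPM with ponatinib 3 mg/kg and 22.4, 38.7 and 64.7 CPM with ponatinib 10 mg/kg. For both beta chains, all 24 mice of these 3 groups lay below the control median, while the ranges overlapped the low end of the control mice. When the 7 groups were ordered by mean log2 CPM, the step between imatinib and the 2 ponatinib groups on the low side and the other 4 groups was larger than the SD of either neighbour for H2-Aa, H2-Ab1, H2-Eb1 and Cd74, at 0.95 to 1.24 on the log2 scale. No other step in the order of these 4 genes exceeded the SDs of its neighbours.

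**Figure D1:**
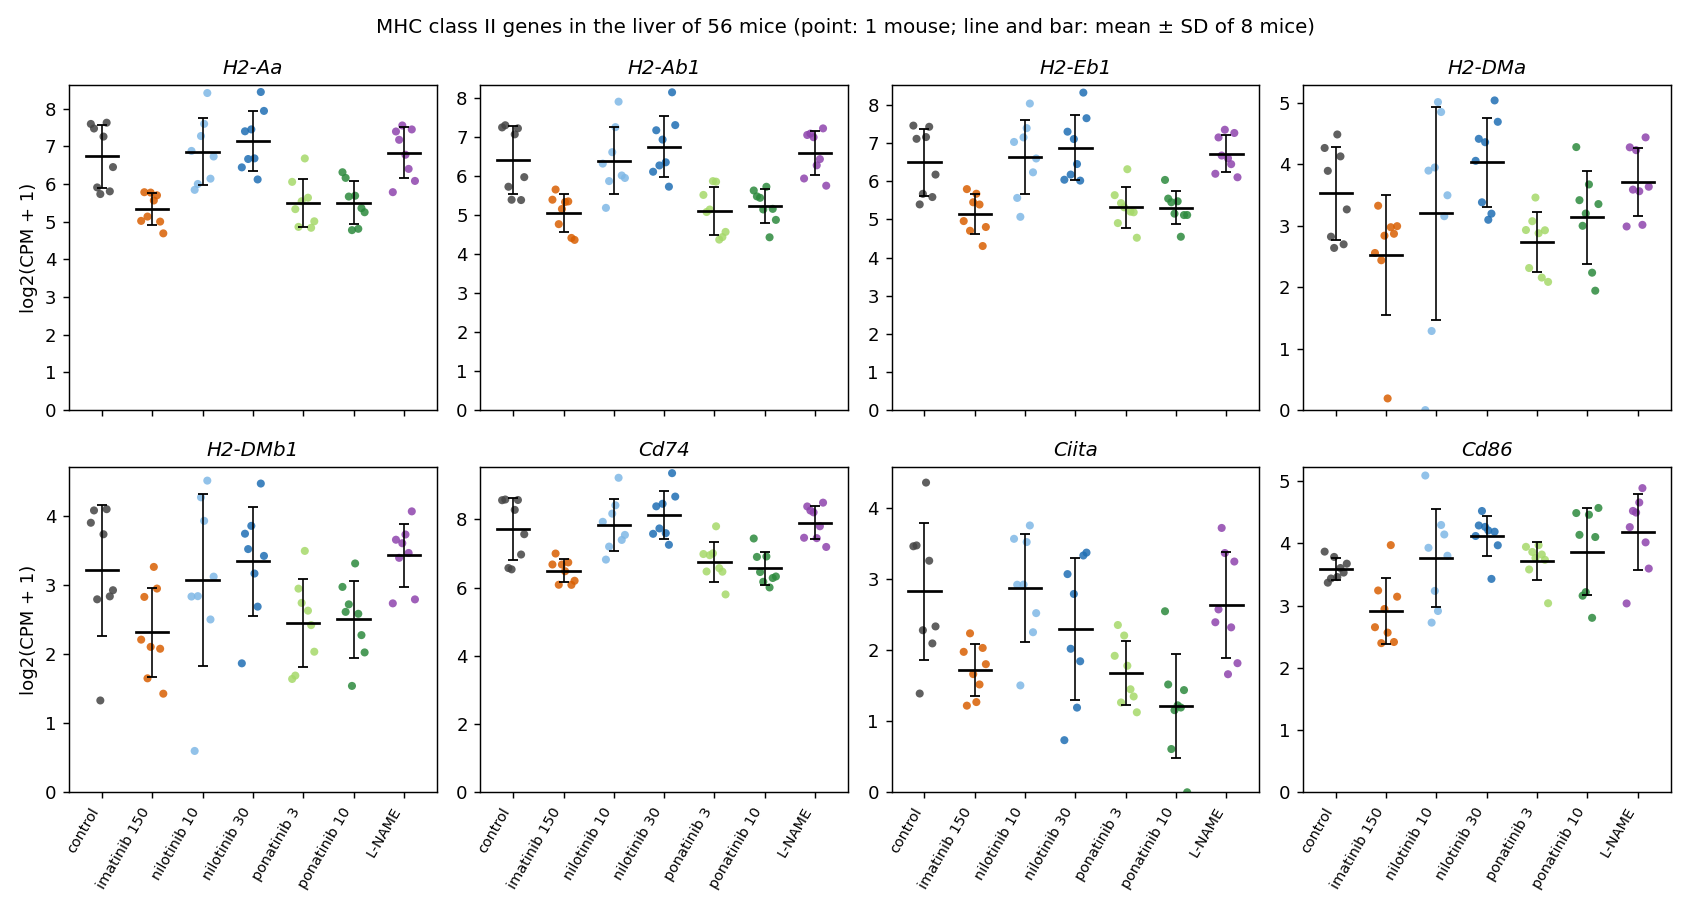
Level of the 8 genes in each mouse, as log2(CPM + 1) on the vertical axis, by group on the horizontal axis; a point is 1 mouse, and the line and bar are the mean and SD of 8 mice. H2-Aa, H2-Ab1, H2-Eb1 and Cd74 are low with imatinib and both doses of ponatinib, and the control mice fall into 4 higher and 4 lower points.

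The spread within the control group was itself patterned. Control mice 3, 4, 7 and 8 were the 4 lowest for 7 of the 8 genes, and for Cd86 only mice 3 and 7 were among the 4 lowest. H2-Ab1 stood at 61.7 CPM or less in these 4 mice and at 133 CPM or more in the other 4, and Cd74 at 188 CPM or less and 309 CPM or more. Every imatinib mouse was below the 4 higher control mice for H2-Ab1, and 6 of 8 were below all 8.

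Against control mice, the genes of the 3 chains, the invariant chain and the transactivator were lower with imatinib: H2-Aa fell by 1.57, H2-Ab1 by 1.54, H2-Eb1 by 1.53, Cd74 by 1.42 and Ciita by 1.68 on the log2 scale. Standard errors were 0.33 to 0.49, and the adjusted p in edgeR's quasi-likelihood test ran from 0.00291 to 0.0178. These 5 of 8 genes were called at an adjusted p below 0.05; over all genes tested 4.5% were called lower in this comparison and 10.2% in either direction. The median log2 fold change of the 8 genes was -1.48, beside -0.02 over all genes tested. The Ciita call was lost without control mouse 5, the highest at 19.4 CPM, with a log2 fold change of -1.32 and an adjusted p of 0.0828.

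With ponatinib 10 mg/kg the same 5 genes were lower than in control mice. H2-Aa fell by 1.35, H2-Ab1 by 1.37, H2-Eb1 by 1.38, Cd74 by 1.31 and Ciita by 2.25 on the log2 scale, with adjusted p between 0.00124 and 0.0089 in edgeR. Over all genes tested, 5.71% were called lower and 12.8% in either direction. The median of the 8 genes was -1.33 on the log2 scale, against -0.01 over all genes. With the share of reads outside genes as a covariate, H2-Aa and H2-Ab1 were past the threshold no longer, at an adjusted p of 0.0623 and 0.0551, while their log2 fold changes were -1.38 and -1.37.

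**Figure D2:**
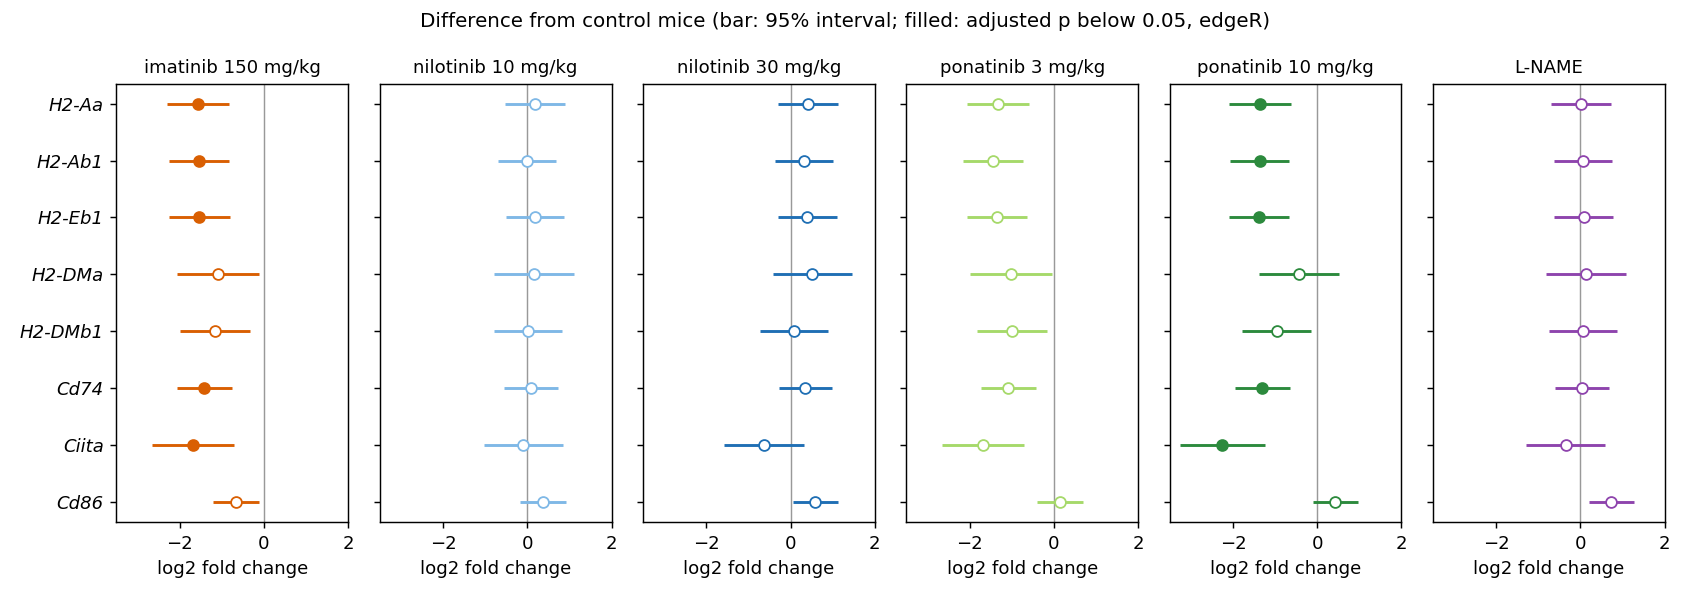
Log2 fold change of each gene against control mice (horizontal axis) for the 6 treated groups; the bar is the 95% confidence interval, and a filled point has an adjusted p below 0.05 in edgeR's test over 14314 genes. The filled points are H2-Aa, H2-Ab1, H2-Eb1, Cd74 and Ciita with imatinib and with ponatinib 10 mg/kg, and the points for ponatinib 3 mg/kg lie at similar values with none filled.

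Cd74, on chromosome 18 at 60803848 to 60812652, was the most abundant member per length of exon. Its level in control mice was 145 ± 78.6 CPM per kilobase (SD, n = 8), followed by H2-Eb1 at 53.8 ± 29.8, H2-Ab1 at 38.1 ± 20.8 and H2-Aa at 31.9 ± 17.0 CPM per kilobase, whose values overlapped. H2-DMb1, H2-DMa and Cd86 followed with means of 5.83, 3.45 and 3.04 CPM per kilobase, and Ciita was lowest at 0.796 ± 0.606. By mouse, Cd74 was 91.6, 249 and 382 CPM (lowest, median, highest) in control mice, 66.6, 94.7 and 127 CPM with imatinib, 54.7, 108 and 221 CPM with ponatinib 3 mg/kg and 63.2, 82.9 and 172 CPM with ponatinib 10 mg/kg. Again all mice of these 3 groups were below the control median. With nilotinib 30 mg/kg it was 152, 272 and 653 CPM.

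Ciita, on chromosome 16 at 10480059 to 10528418, was measured on few reads. It was 1.62, 6.28 and 19.4 CPM in control mice, 1.32, 2.32 and 3.70 CPM with imatinib, 1.18, 2.08 and 4.10 CPM with ponatinib 3 mg/kg, and 0, 1.31 and 4.83 CPM with ponatinib 10 mg/kg. All 24 mice of these groups lay below the control median. With nilotinib 30 mg/kg it was 0.661, 4.47 and 9.32 CPM, and its log2 fold change there of -0.63 (95% interval -1.57 to 0.31) had a sign opposite to that of the other 7 genes. In the annotation 3.45% of its exon bases are shared with Dexi on the opposite strand.

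The H2-DM genes did not pass the threshold against control mice in any group. H2-DMa, on chromosome 17 at 34119541 to 34139101, was 5.22, 11.2 and 21.3 CPM in control mice and 0.141, 6.22 and 9.01 CPM with imatinib, where all 8 mice were below the control median. Its log2 fold change was -1.09 with imatinib (95% interval -2.07 to -0.11, adjusted p = 0.155 in edgeR), -1.01 with ponatinib 3 mg/kg and -0.43 with ponatinib 10 mg/kg. It was at 0 counts in nilotinib 10 mg/kg mouse 1 and at 1 count in imatinib mouse 5. Of its exon bases, 10.4% are shared with Brd2 on the other strand.

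H2-DMb1, at 34153072 to 34160230, was 1.51, 9.44 and 16.1 CPM in control mice, 1.69, 3.46 and 8.58 CPM with imatinib and 1.91, 5.05 and 8.92 CPM with ponatinib 10 mg/kg. Its log2 fold change was -1.16 with imatinib (adjusted p = 0.063 in edgeR) and -0.96 with ponatinib 10 mg/kg (adjusted p = 0.119). With imatinib it passed in DESeq2, and in edgeR without control mouse 3, control mouse 4 or imatinib mouse 5. H2-DMb2 is a near copy of H2-DMb1, so reads that align to both are not assigned and the level of each is uncertain. H2-DMb2 stood at a median of 1.16 CPM in control mice.

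At the lower dose of ponatinib, 3 mg/kg, none of the 8 genes was called against control mice, in a comparison in which 1 gene of 14314 was called, 0.00699%. The sizes were nevertheless close to those at 10 mg/kg: H2-Aa -1.33, H2-Ab1 -1.44, H2-Eb1 -1.34, Cd74 -1.08 and Ciita -1.68 on the log2 scale, with adjusted p between 0.132 and 0.219 in edgeR. Of the 8 genes, 7 had an unadjusted p below 0.05 and 5 below 0.01, beside 3.05% of all genes tested below 0.01. DESeq2 gave an adjusted p for 4 of the 8 genes and called 3 of those, and limma voom called 4 of the 8. The shares of all genes that these tools called are not given here. Between the 2 doses none was called (1.38% of all genes were; none at an unadjusted p below 0.05, and none by DESeq2 or limma voom). The difference of 10 minus 3 mg/kg was -0.03 for H2-Aa (95% interval -0.75 to 0.70), 0.08 for H2-Ab1 (-0.62 to 0.78), -0.04 for H2-Eb1 (-0.75 to 0.67), -0.23 for Cd74 (-0.87 to 0.42) and -0.57 for Ciita (-1.56 to 0.43). The intervals leave room for differences of more than 0.4 in both directions.

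With nilotinib the class II genes were not called at either dose. At 10 mg/kg the median log2 fold change of the 8 genes was 0.13, with 1.47% of all genes called and none of the 8 at an unadjusted p below 0.05. At 30 mg/kg it was 0.38, with 5.71% of all genes called in either direction and 1 of the 8, Cd86, at an unadjusted p below 0.05. Neither DESeq2 nor limma voom called any member at either dose. For H2-Ab1 the 95% interval was -0.69 to 0.68 at 10 mg/kg and -0.36 to 1.01 at 30 mg/kg. Between the 2 doses no gene of the 14314 was called in edgeR (0%), and no member had an unadjusted p below 0.05 or a call by DESeq2 or limma voom. With L-NAME no member was called in edgeR beside 11.7% of all genes, DESeq2 and limma voom each called 1, and 7 of the 8 genes lay within 0.35 of no change on the log2 scale. The exception was Cd86.

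Cd86, on chromosome 16 at 36603869 to 36666081, was lower with imatinib as the other members were. With both doses of ponatinib it was the only member with a log2 fold change above 0. No difference between Cd86 and the other members was tested. Cd86 was at 9.34, 10.9 and 13.6 CPM in control mice, the narrowest relative range of any member there. With imatinib it was 4.27, 6.00 and 14.7 CPM, and 7 of 8 mice lay below every control mouse while mouse 6 lay above all of them. With nilotinib 30 mg/kg it was 9.78, 17.4 and 22.0 CPM and 7 of 8 mice lay above every control mouse. With L-NAME it was 7.20, 19.9 and 28.7 CPM, with 6 of 8 mice above every control mouse and 1 below. With ponatinib 10 mg/kg it was 5.99, 16.4 and 22.8 CPM, with 5 mice above and 3 below all control mice.

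None of these Cd86 differences from control was called. The log2 fold change was -0.66 with imatinib (95% interval -1.21 to -0.11, adjusted p = 0.122 in edgeR), 0.59 with nilotinib 30 mg/kg (0.05 to 1.13, adjusted p = 0.208), 0.43 with ponatinib 10 mg/kg (-0.11 to 0.97, adjusted p = 0.329) and 0.73 with L-NAME (0.20 to 1.27, adjusted p = 0.0629). The L-NAME difference had an unadjusted p of 0.00814, below the 0.01 that 13.8% of all genes met there, and it was called by both DESeq2 and limma voom, by each as the only member. Without imatinib mouse 6 the log2 fold change with imatinib was -0.89, with an adjusted p of 0.0298.

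The drugs were then set against each other. Imatinib and nilotinib, which was developed from imatinib, were given at different doses, as were most pairs, and 10 mg/kg of nilotinib and of ponatinib was the one nominal dose shared by 2 drugs. Ponatinib 10 mg/kg minus nilotinib 10 mg/kg was added after the other comparisons had been seen. H2-Aa fell by 1.53, H2-Ab1 by 1.36, H2-Eb1 by 1.56, Cd74 by 1.40 and Ciita by 2.16 on the log2 scale, with adjusted p from 0.0135 to 0.0261 in edgeR over all genes tested. These were 5 of 8 genes beside 0.943% of all genes called lower and 1.94% in either direction. Leaving out nilotinib mouse 6, the highest for Cd74 at 594 CPM, left 1 of the calls, and a fit of those 2 groups alone made none. Cd86 differed by 0.05 (95% interval -0.48 to 0.59).

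Imatinib 150 mg/kg and nilotinib 30 mg/kg differ in dose and in gavages per day. Here the H2-Aa levels did not overlap, at 24.8 to 54.1 CPM with imatinib against 68.6 to 347 CPM with nilotinib. The ranges were also separate for H2-Ab1, H2-Eb1 and Cd74. The share of all genes tested with separate ranges is not given here. H2-Aa, H2-Ab1, H2-Eb1, Cd74 and Cd86 were called lower, with log2 differences of -1.98, -1.86, -1.93, -1.77 and -1.25 and adjusted p of 0.00359 or less in edgeR, beside 2.32% of all genes called lower and 3.51% in either direction. Ponatinib 10 mg/kg minus nilotinib 30 mg/kg gave -1.76, -1.69, -1.78 and -1.66 for H2-Aa, H2-Ab1, H2-Eb1 and Cd74, all called, beside 0.803% of all genes called lower and 1.65% in either direction.

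Ponatinib 10 mg/kg and imatinib 150 mg/kg, at doses that also differ, were separated by Cd86 alone among the 8 genes. It was higher with ponatinib by 1.09 on the log2 scale (95% interval 0.53 to 1.64, adjusted p = 0.0275 in edgeR), beside 0.957% of all genes called. That call was lost under 7 of the 16 fits that left out 1 mouse. For H2-Aa, H2-Ab1, H2-Eb1 and Cd74 the difference was between 0.11 and 0.22, with intervals reaching from -0.56 to 0.95. These comparisons share groups with those against control and are not independent of them.

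Across mice of the same group the chain genes and Cd74 varied together. After each group's mean was subtracted, Pearson's r of log2 CPM over the 56 mice was 0.892 to 0.933 among H2-Aa, H2-Ab1, H2-Eb1 and Cd74. It was 0.718 to 0.756 between these and H2-DMb1, 0.591 to 0.634 with Ciita and 0.396 to 0.456 with H2-DMa. Cd86 correlated with the other members at 0.01 to 0.336. All points share their library, so depth and composition enter both axes. The H2-DMa and Ciita values also rest on fewer reads than the chain genes. Within groups the mean standardised level of the 4 tightest genes had r = 0.028 with the share of reads outside genes, 0.162 with log2 depth and -0.633 with Alb, the hepatocyte gene for albumin.

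**Figure D3:**
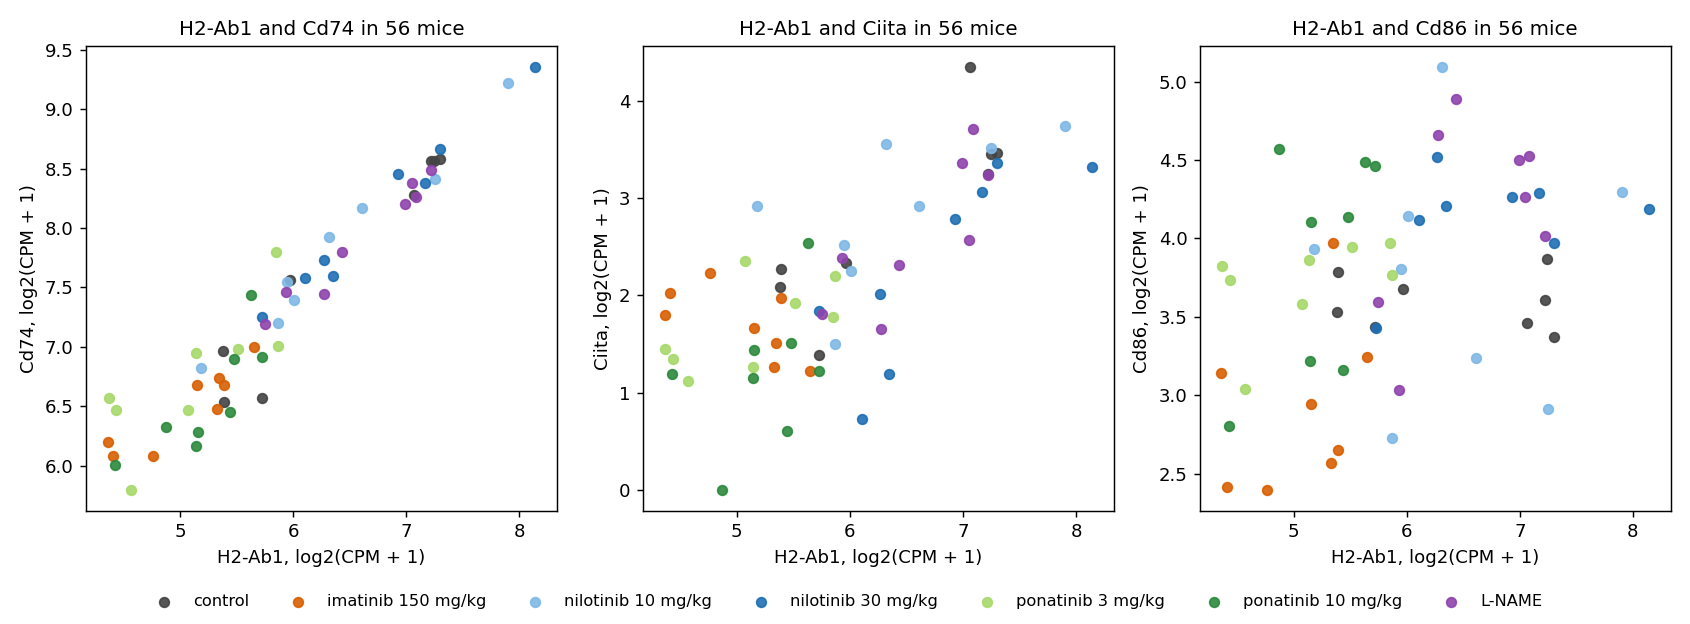
H2-Ab1 (horizontal axis) against Cd74, Ciita and Cd86 (vertical axes) as log2(CPM + 1) in 56 mice, coloured by group. Cd74 follows H2-Ab1 along a narrow band across all groups, Ciita follows it more loosely, and Cd86 shows no such band.

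The 10 genes outside the members that were most like this set, by Pearson's r over 56 mice with the mean of H2-Aa, H2-Ab1, H2-Eb1 and Cd74 within groups, had r between 0.77 and 0.846, and the next gene had 0.762. They were Lgals3, encoding galectin-3 (0.846), Clec7a, encoding the beta-glucan receptor dectin-1 (0.831), Ctss, the protease that cleaves the invariant chain (0.829), and Capg (0.804). Col1a1, a chain of type I collagen (0.801), Sema4d (0.794), Irf8, a transcription factor of dendritic cells and macrophages (0.793), Vim, encoding vimentin (0.786), Psap (0.772) and Anxa5 (0.77) completed the list. With imatinib 9 of the 10 were lower than in control mice at an adjusted p below 0.05 in edgeR, beside 4.5% of all genes, with Anxa5 the exception at 0.0816. With ponatinib 10 mg/kg 6 of the 10 were, beside 5.71% of all genes, and Lgals3, Clec7a, Capg and Vim were not, at adjusted p from 0.0571 to 0.201. Col1a1 differed most, by -3.03 on the log2 scale with imatinib and -2.78 with ponatinib 10 mg/kg. The 10 genes were picked from these same 56 mice for varying with the members. Their differences from control are therefore not independent of those of the members and are no separate support for them. Ctss and Irf8 are also in the lists that follow.

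Of 13 other genes of class II peptide loading and processing, 10 were tested. With imatinib 5 of them were lower and none higher, beside 4.5% of all genes called lower. Ctss was 83.7, 160 and 232 CPM in control mice and 42.8, 50.8 and 61.0 CPM with imatinib. Its log2 fold change was -1.58, with an adjusted p of 0.000558 in edgeR. Lgmn and Ctsb, further endosomal proteases, fell by 0.73 and 0.45, Sppl2a, which clears the invariant chain remnant, by 0.38, and Ctsl by 0.35. At 10 mg/kg of ponatinib 3 were lower, beside 5.71% of all genes: Ctss by 0.88, Ctsd by 0.50 and Ctsb by 0.32 on the log2 scale. The medians of the 10 genes were -0.41 and -0.30. DESeq2 and limma voom called 6 and 7 of them with imatinib and 3 and 5 with ponatinib 10 mg/kg. H2-Oa and H2-Ob, which encode the inhibitor of H2-DM, were at medians of 0.461 and 2.33 CPM in control mice, and H2-Ea-ps was at 0 counts in every mouse of the control, imatinib and ponatinib 10 mg/kg groups.

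Of the 17 genes of class II transcription and interferon gamma signalling, 16 were tested. With imatinib 5 were lower, beside 4.5% of all genes. Irf8 fell by 1.01 and Spi1, encoding the myeloid factor PU.1, by 0.90 on the log2 scale. The interferon gamma receptor genes Ifngr2 and Ifngr1 fell by 0.60 and 0.56, and the kinase gene Jak1 by 0.51. In the ponatinib 10 mg/kg group 2 of the 16 were lower, Irf8 by 0.73 and Ifngr2 by 0.62. Of all genes 5.71% were called lower there and 12.8% in either direction. The genes for the X box and Y box factors, Rfx5, Rfxap, Rfxank, Nfya, Nfyb and Nfyc, were not called in edgeR in either comparison. Their log2 fold changes lay between -0.43 and 0.41 with imatinib. With ponatinib 10 mg/kg they lay between -0.21 and 0.52, with Nfya alone below 0. There Nfyb and Nfyc, at 0.34 and 0.52, had an unadjusted p of 0.0259 and 0.0441 in edgeR. Of the whole list DESeq2 and limma voom called 5 genes each with imatinib, and 3 and 5 with ponatinib 10 mg/kg. Ifng itself was near 0, with a median of 0 CPM in control mice.

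Of 10 genes of costimulation and turnover, 8 were tested. With imatinib March1, encoding a ubiquitin ligase that removes class II and CD86 from the surface, fell by 1.33, and Cd274, encoding PD-L1, by 1.19 on the log2 scale. In the ponatinib 10 mg/kg group Cd83 fell by 1.10 and March8 by 0.31. In each comparison these were the 2 genes called lower, beside 4.5% of all genes with imatinib and 5.71% with ponatinib 10 mg/kg. DESeq2 and limma voom called 4 and 5 of the list with imatinib and 2 each with ponatinib 10 mg/kg. Cd40 had a log2 fold change of -2.20 with imatinib and an adjusted p of 0.0527 in edgeR, at a median of 2.64 CPM in control mice and 0.506 CPM with imatinib.

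MHC class I genes, which present peptides made inside the cell and are used by hepatocytes as well, did not follow at the same size. All 15 were tested, and with imatinib 5 were lower, beside 4.5% of all genes. They were Tap1, a chain of the peptide transporter, by 0.79, Psmb9 by 0.72, Erap1 by 0.71, Tapbp by 0.47 and H2-D1 by 0.30. The median of the 15 was -0.25. With ponatinib 10 mg/kg Erap1 fell by 0.71 and Canx by 0.50, B2m, the light chain of class I, rose by 0.35, and the median was -0.06. These calls, 2 lower and 1 higher, stood beside 5.71% of all genes called lower and 12.8% in either direction. The class I heavy chain genes H2-K1 and H2-D1 had log2 fold changes of -0.08 and -0.30 with imatinib and 0.20 and 0.11 with ponatinib 10 mg/kg. With ponatinib 3 mg/kg and nilotinib 10 mg/kg none of the genes of these 4 lists was called in edgeR. For class I, limma voom called 2 and 3 genes there and DESeq2 none. With nilotinib 10 mg/kg DESeq2 also called 1 gene of the transcription list and limma voom 1 of the costimulation list. The calls in edgeR with nilotinib 30 mg/kg were March8 and Erap1, lower, and B2m, higher. Those with L-NAME were H2-Ob and B2m, higher, and Jak1, March8, Erap1 and Canx, lower. For class I, DESeq2 and limma voom called more genes in most of the other groups. They called 7 and 11 with L-NAME, where 10 had an unadjusted p below 0.05 in edgeR and the median was 0.24. With ponatinib 10 mg/kg they called 3 and 7, with imatinib 5 each and with nilotinib 30 mg/kg 2 and 4.

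**Figure D4:**
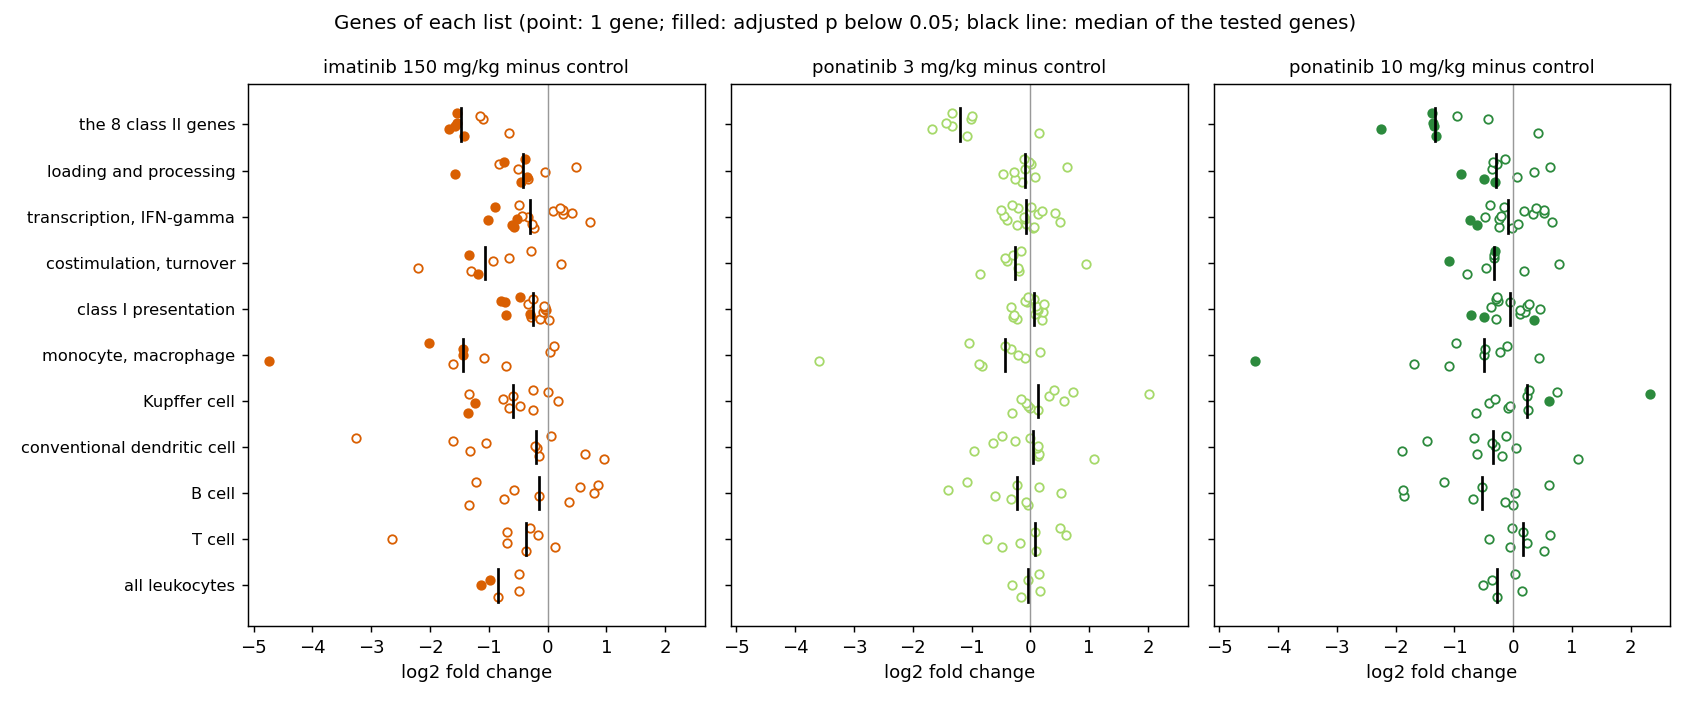
Log2 fold change against control mice (horizontal axis) of every tested gene of the lists named on the vertical axis, with imatinib 150 mg/kg, ponatinib 3 mg/kg and ponatinib 10 mg/kg; filled points have an adjusted p below 0.05 and the black line is the median of the tested genes. The 8 class II genes have a median of -1.48, -1.20 and -1.33 in the 3 panels, and the monocyte and macrophage markers have the next lowest in the first panel at -1.43.

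Markers of the cells that could carry these transcripts moved with the class II genes in part. Of 9 markers of monocytes and recruited macrophages, 4 fell with imatinib, beside 4.5% of all genes. Gpnmb fell by 4.74, Trem2 by 2.02, the integrin gene Itgb2 by 1.44 and Lyz2, the macrophage lysozyme gene, by 1.43 on the log2 scale. The sum of the 9 was 242.7 to 854 CPM in control mice, 164 to 312 CPM with imatinib and 189 to 688 CPM with ponatinib 10 mg/kg, where Gpnmb was the only call in edgeR, lower by 4.40. In that comparison 5.71% of all genes were called lower and 12.8% in either direction. The median of the 9 there was -0.50 on the log2 scale, 4 had an unadjusted p below 0.05, and DESeq2 called 3 and limma voom 2. Of 5 genes of all leukocytes, Laptm5 fell by 1.14 and Ptprc, encoding CD45, by 0.98 with imatinib. With ponatinib 10 mg/kg none was called in edgeR, 1 had an unadjusted p below 0.05, and limma voom called 1 and DESeq2 none. Their sum was 104 to 230.5 CPM in control mice, 64.5 to 125 CPM with imatinib and 65.5 to 240.0 CPM with ponatinib 10 mg/kg.

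Of 11 Kupffer cell markers, Adgre1, encoding F4/80, fell by 1.35 and Cd5l by 1.23 on the log2 scale with imatinib. With ponatinib 10 mg/kg Marco rose by 2.32 and Clec4f by 0.61. In each comparison these were 2 of the 11. Over all genes tested, 10.2% were called in either direction with imatinib and 12.8% with ponatinib 10 mg/kg. The medians of the 11 were -0.59 and 0.24. With imatinib 5 had an unadjusted p below 0.05 in edgeR, and DESeq2 called 3 and limma voom 4. With ponatinib 10 mg/kg these counts were 2, 2 and 3. The sum of the 11 was 981 to 1861 CPM in control mice, 603 to 1219 CPM with imatinib and 570 to 2832 CPM with ponatinib 10 mg/kg. The part of these cell types in the class II result was not tested.

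The markers of conventional dendritic cells were low. The sum of 11 was 50.6 to 96.7 CPM in control mice, 47.9 to 82.1 CPM with imatinib and 45.0 to 78.1 CPM with ponatinib 10 mg/kg, and none of the 10 tested was called in edgeR in either comparison. With imatinib 2 had an unadjusted p below 0.05, Itgax at a log2 fold change of -1.60 and Xcr1 at -3.26, and with ponatinib 10 mg/kg Itgax at -1.46. DESeq2 and limma voom called 1 gene each in both comparisons. The medians of the 10 tested were -0.20 with imatinib and -0.34 with ponatinib 10 mg/kg on the log2 scale. Itgax, encoding CD11c, had r = 0.668 with the class II mean over the 56 mice within groups, and Ptprc had 0.552 and the Kupffer cell marker Clec4f -0.116. These are single genes and do not stand for their cell types. No correlation is given here for the other markers of their lists. Of 5 plasmacytoid dendritic cell markers 1 was tested and none called, with none at an unadjusted p below 0.05 and none by DESeq2 or limma voom.

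None of 9 B cell markers was called in edgeR with imatinib or ponatinib 10 mg/kg, 1, Cd22, had an unadjusted p below 0.05 in each, and limma voom called 1 in each and DESeq2 none. Their sum was 8.08 to 24.8 CPM in control mice, 12.2 to 21.7 CPM with imatinib, 5.04 to 21.2 CPM with ponatinib 10 mg/kg and 21.3 to 37.3 CPM with L-NAME, a group in which none was called either (1 at an unadjusted p below 0.05, none by DESeq2 and 2 by limma voom). The 8 T cell, 5 natural killer cell, 6 sinusoidal endothelial cell and 5 cholangiocyte markers had no call in either comparison in edgeR. Of these, with imatinib 1 T cell and 1 endothelial marker had an unadjusted p below 0.05, and with ponatinib 10 mg/kg 2 endothelial markers, 1 of which limma voom called; DESeq2 called none. Of 6 stellate cell markers edgeR called Ecm1 alone, higher by 0.60 with imatinib and by 0.56 with ponatinib 10 mg/kg, while the medians of the 6 were -0.31 and -0.24 on the log2 scale. DESeq2 called 2 of them with imatinib and 1 with ponatinib 10 mg/kg, and limma voom 4 and 2. Of 7 hepatocyte markers, Cps1 fell by 0.92 and 0.86 and Apoa1 rose by 0.66 and 0.85 in the 2 comparisons. Over all genes tested, edgeR called 10.2% in either direction with imatinib and 12.8% with ponatinib 10 mg/kg.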

How the data were processed

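The authors sequenced poly(A) RNA of liver on a NextSeq 500 and deposited, per the labels, 1 table of raw counts per mouse: reads aligned to GRCm38 with TopHat2 2.0.14 and Bowtie2 2.1.0 and assigned to genes with HTSeq 0.6.1p1, without normalization. Reads with several alignments were not assigned, and the strand setting is not given in the sources used here. The members and lists were chosen with earlier results of these data known. Gene names and exon lengths came from GENCODE vM21, which held 44585 of the 45513 identifiers. Counts of 56 mice were fitted together with edgeR 4.0.16 (R 4.3.3; TMM, filterByExpr, robust quasi-likelihood test, Benjamini-Hochberg over 14314 genes, called below 0.05). The cut-off of the study, an unadjusted p of 0.01, was an alternative, as were DESeq2 1.42.0 and limma 3.58.1. The shares of all genes that DESeq2 and limma voom called are not given here for any comparison. Their counts of calls therefore have no such share beside them. Standard errors are the absolute log2 fold change divided by the square root of F. All 8 members were named, and of each list at most the 4 called genes with the largest change per comparison, or all where 5 or fewer were called; of hepatocyte markers only those called in both comparisons are given. No 2 libraries held identical counts. The number of mice, 8 per group, and the counts per gene limit the precision. The fitting script was tested on simulated data with known fold changes.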

Additional observations from a re-analysis of the deposited data

Results flagged for a closer look

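Each member was checked for a mouse far from the other 7 of its group: its gap to the nearest mouse was divided by the range of the group and set against Dixon's 95% critical value for 8 samples. Of 56 combinations of gene and group 6 exceeded it, each through the highest mouse. The value flags about 1 in 20 of independent normal samples. These were untransformed CPM of genes that vary together, so that rate need not hold here. Nilotinib 30 mg/kg mouse 7 had 281.7 CPM of H2-Ab1, with the next mouse at 157 CPM. Nilotinib 10 mg/kg mouse 6 had 594 CPM of Cd74, with the next at 340 CPM. Ponatinib 3 mg/kg mouse 5 had 78.8 CPM of H2-Eb1 and 221 CPM of Cd74, with the next mice at 48.8 and 127 CPM. Ponatinib 10 mg/kg mouse 1 had 4.83 CPM of Ciita, with the next at 1.86 CPM. Imatinib mouse 6 had 14.7 CPM of Cd86, with the next at 8.48 CPM.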

How the results depend on the processing

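Of the 10 single-gene calls against control, 77 of 80 refits under other normalizations, filters, tests, samples or covariates and 159 of 160 that left out 1 mouse kept the direction and the call. Those lost were Ciita with imatinib (log2 fold change -1.55, adjusted p = 0.0723) and H2-Aa and H2-Ab1 with ponatinib 10 mg/kg, all with the share of reads outside genes as a covariate, and Ciita with imatinib without control mouse 5; the cause was not tested. With ponatinib 3 mg/kg DESeq2 called 3 of the 4 members to which it gave an adjusted p. There limma voom called 4 members, and an unadjusted p below 0.01 took in 5. For ponatinib 10 mg/kg the covariate left 3 calls. A fit of the 2 groups compared alone called 1 member, Cd86, with nilotinib 30 mg/kg, and with L-NAME DESeq2, limma voom, the fit of 2 groups and an unadjusted p below 0.01 took in 1 each. Ponatinib 10 mg/kg minus imatinib had 0 calls in limma voom, in the fit of 2 groups and at an adjusted p below 0.01. Ponatinib 10 mg/kg minus nilotinib 10 mg/kg had 3 calls in limma voom and 0 in the latter pair of settings. Leaving out 1 mouse gave 4 to 6 calls with imatinib, 5 to 5 with ponatinib 10 mg/kg, 0 to 1 with L-NAME, 5 to 6 for imatinib minus nilotinib 30 mg/kg, 4 to 5 for ponatinib 10 mg/kg minus nilotinib 30 mg/kg, 0 to 1 for ponatinib 10 mg/kg minus imatinib and 1 to 5 for ponatinib 10 mg/kg minus nilotinib 10 mg/kg, where the 1 was without nilotinib mouse 6. The call of ponatinib 10 mg/kg minus imatinib was lost without ponatinib mouse 1, 5 or 8 or imatinib mouse 1, 3, 5 or 7, and Cd86 was called with L-NAME without mouse 1 or 8 of that group. All other comparisons had 0 calls in each such fit.

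Signs turned for values near 0 that were not called. With nilotinib 10 mg/kg the log2 fold change of H2-Ab1 was 0.02073 with DESeq2's size factors in edgeR, 0.01738 with upper-quartile scaling, 0.02146 in DESeq2 and 0.04228 in limma voom. H2-DMa was -0.02605 in limma voom and -0.6205 as the difference of mean log2 CPM of the exact permutation test, which was added after the data were seen. H2-DMb1 was -0.2408 in limma voom, -0.01144 with the covariate and -0.2123 in the permutation test, and Ciita was 0.01804 with the covariate and 0.05875 in the permutation test. With L-NAME the covariate gave -0.0117 for H2-Aa and -0.0002272 for H2-DMb1. Leaving out 1 mouse, the log2 fold change with nilotinib 10 mg/kg ran from -0.1699 to 0.3004 for H2-Aa, -0.3386 to 0.1239 for H2-Ab1, -0.09495 to 0.3216 for H2-Eb1, -0.1355 to 0.3453 for H2-DMa, -0.2545 to 0.2002 for H2-DMb1, -0.2052 to 0.2143 for Cd74 and -0.2618 to 0.2607 for Ciita. With L-NAME it ran from -0.1016 to 0.1444 for H2-Aa, -0.0665 to 0.1845 for H2-Ab1, -0.04432 to 0.2143 for H2-Eb1, -0.009873 to 0.2903 for H2-DMa, -0.1102 to 0.1899 for H2-DMb1, -0.08782 to 0.1653 for Cd74 and -0.5893 to 0.003593 for Ciita, and for H2-DMb1 with nilotinib 30 mg/kg from -0.1473 to 0.2176. DESeq2 gave no adjusted p for 9 combinations of member and comparison, among them Ciita with ponatinib 3 mg/kg, which were left without one.

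No paired analysis was possible because the replicate numbers only follow the order of the samples and tie no mice together. Against control mice the standard errors of Ciita and H2-DMa were larger than those of the chain genes and those of Cd86 smaller; the cause was not tested.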
